A study of Mus musculus with 6 samples.

Results

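The potassium channel genes of cultured Schwann cells (SCs) were taken as the protein-coding genes whose symbol starts with Kcn. The count table holds 94 of them among 55401 genes, and the 71 that reached 2 counts in 5 or more of the 6 libraries are described here. Bulk RNA-seq was made from cultures of primary SCs that had been started from adult dorsal root ganglia, 3 cultures from WT mice and 3 from Plxnb1-/- mice. Plxnb1 encodes the guidance receptor Plexin-B1, and the study's mutant allele carries a transmembrane-lacZ-neo trap cassette in the Plxnb1 locus on a C57BL/6 background, so that the gene is disrupted in every cell of the animal and not in SCs alone. The sequencing labels name the controls WT, and the series text calls them littermates, while the study's methods also allow heterozygous littermates as controls in its mouse work. All cultures were kept in serum with forskolin and neuregulin, were depleted of fibroblasts with an antibody to Thy1, and had a labelled purity above 80% at passages 3 to 5. The labels do not say how many animals a culture came from, so p-values measure the spread between these cultures.

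Potassium channels let potassium ions leave or enter a cell along their gradient and thereby set its resting membrane potential. The voltage-gated family opens on depolarization, the inward rectifiers pass current best near rest, the tandem-pore channels leak at all voltages, and a further group opens on intracellular calcium or sodium. Accessory subunits change the gating or trafficking of these pores. In peripheral nerve, SCs are known for voltage-gated currents that accompany proliferation and for inward rectifiers that take up the potassium released by firing axons.

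A library held 59252048 to 77280964 counts. Values are given as CPM, counts scaled by library size and TMM factor, in the order of replicates 1, 2, and 3, and 3 counts amount to 0.0383 to 0.0513 CPM. A level is the CPM per kilobase (kb) of annotated exon. Plxnb1 stood at 61.8, 45.4, and 96.4 CPM across the WT cultures and at 13.1, 16.6, and 18.6 CPM across the Plxnb1-/- cultures (log2 fold change -2.08, adjusted p = 0.0449 from edgeR), lower in each library labelled Plxnb1-/-. The libraries were not alike within a genotype. WT replicate 2 was the lowest of the 6 libraries for 27.0% of all tested genes and the highest for 25.1%, and Plxnb1-/- replicate 3 was the lowest for 18.5% and the highest for 20.4%. The 10 SC markers, among them Sox10, S100b, Ngfr, Erbb3, Gfap, Cdh19, Foxd3, and Egr2, were present in every library. Their summed CPM ran from 2460 to 2908 CPM in WT and from 2939 to 3308 CPM in Plxnb1-/- cultures, with the lowest sum in WT replicate 2. In bulk RNA, fewer cells of a type and less RNA per cell cannot be told apart.

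A few genes held most of the potassium channel RNA. The 8 highest members made up between 90.9% and 92.1% of the summed level in every library. Kcnj10, the inward rectifier that glia use to buffer potassium, led with a mean level of 138 CPM per kb and alone took between 43.3% and 44.9% of the sum. Kcnk5, an acid-sensitive tandem-pore channel, followed at 48.0 CPM per kb. Kcna6, a voltage-gated pore subunit of the Shaker family, stood at 31.6 CPM per kb. The levels of these 3 genes did not overlap in any library. Below them came Kcnn4, the intermediate-conductance calcium-activated channel, at 19.99 CPM per kb and Kcnh2, the ERG channel best known from cardiac repolarization, at 17.5 CPM per kb. The library values of this pair overlapped, although Kcnn4 was the higher gene in 6 of 6 libraries. Kcna2 at 13.3, Kcna1 at 9.13, and Kcnj15 at 9.09 CPM per kb completed the group. Kcna1 and Kcnj15 could not be ordered, since Kcna1 was higher in 4 of the 6 libraries.

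**Figure D1:**
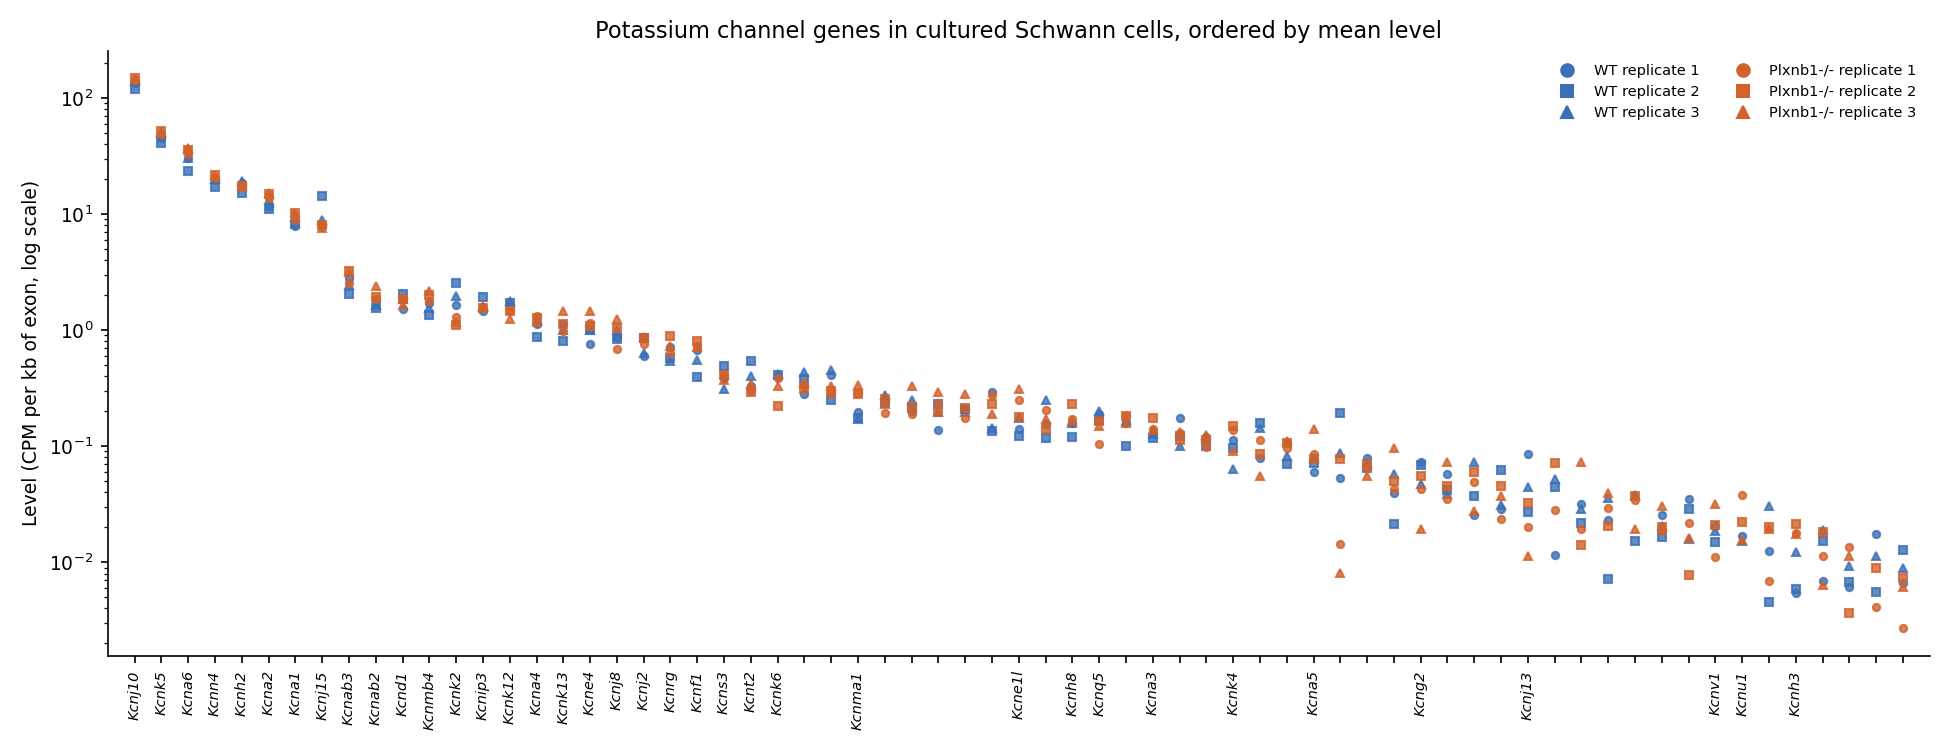
The y axis gives the level of 67 of the 71 potassium channel genes in CPM per kb of exon on a log scale, and the x axis orders the genes by their mean, with symbols for those described in the text. Points are single cultures, 4 values of 0 are not drawn, and a step separates the 8 highest genes, at 9.09 CPM per kb or more, from Kcnab3 at 2.71.

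A step in level followed Kcnj15, whose lowest library value was 7.53 CPM per kb. The next gene, Kcnab3, which encodes a cytoplasmic beta subunit of voltage-gated channels, stood at 2.71 CPM per kb, with no library value reaching those of Kcnj15. From Kcnab3 down to Kcnj2, the gene at place 20, every pair of neighbours overlapped in its library values. In all, 10 members lay between 1 and 8 CPM per kb, 27 between 0.1 and 1, and 26 below 0.1. Of the lowest members, 13 had mean counts under 10 in both genotypes. Another 23 protein-coding Kcn genes stayed under the filter, and 5 of them, Kcna10, Kcng3, Kcnj1, Kcnj11, and Kcns2, had no count in any library, which allows at most 0.0383 to 0.0513 CPM. The other 18 were Kcna7, Kcnd2, Kcne1, Kcne2, Kcng4, Kcnh5, Kcnip2, Kcnj3, Kcnj5, Kcnj6, Kcnj9, Kcnk15, Kcnk16, Kcnk18, Kcnmb2, Kcnmb3, Kcnq1, and Kcnv2. Kcnj11, the pore of the classical ATP-sensitive channel, and its partner Abcc8 were thus at or near 0, whereas the vascular type of that channel, Kcnj8, was measured at 0.946 CPM per kb.

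By class, the inward rectifiers took between 46.9% and 49.3% of the summed level and the voltage-gated pore subunits between 23.1% and 25.5%. The tandem-pore channels took between 16.7% and 17.9%, the calcium- or sodium-activated pores between 6.60% and 6.85%, and the accessory subunits between 3.14% and 3.84%. The silent voltage-gated subunits, which do not form channels alone, took between 0.315% and 0.417%. In each of these shares, the range over 6 libraries was small beside the distance to the next class. Of the 9 inward rectifiers measured, 2 exceeded 1 CPM per kb, Kcnj10 and Kcnj15, and among the 11 tandem-pore genes Kcnk5 was followed by Kcnk2, Kcnk12, and Kcnk13 at between 1.09 and 1.62 CPM per kb. All 21 subfamilies of the table had at least 1 member above the filter.

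To ask which channels differ between the genotypes, edgeR's quasi-likelihood test was run on all 22318 genes that passed the filter, with Benjamini-Hochberg adjustment over all of them. A call required an adjusted p under 0.05 together with a log2 fold change beyond 0.25 in either direction. No potassium channel gene was called, against 0.0358% of all tested genes, and the lowest adjusted p among the members was 0.152 (edgeR). At an unadjusted p below 0.05 stood 15 of the 71 members, or 21.1%, against 13.7% of all tested genes. Of these, 12 were higher in Plxnb1-/- SCs, where 6.95% of all tested genes were, and 3 were lower, where 6.78% were. DESeq2, the tool that the study's methods name, called 4 of the 71 members on the same genes and cutoffs, against 1.50% of all tested genes. These were Kcnk2, lower in Plxnb1-/- SCs, and Kcnma1, Kcna2, and Kcna6, higher in Plxnb1-/- SCs. Without a filter on low counts, edgeR called the same 4 genes, against 0.949% of all genes then tested.

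Across the 71 members, 41 had a higher and 30 a lower fitted value in Plxnb1-/- SCs, and the median log2 fold change was 0.14. Over all tested genes, 51.5% were higher and the median was 0.005. The cultures of the genotypes did not overlap for 18 members, or 25.4%, 14 of them higher and 4 lower in Plxnb1-/- SCs, against 19.7% of all tested genes, 9.30% higher and 10.4% lower. Among the 20 highest members, 10, or 50%, had an unadjusted p below 0.05 in edgeR, 8 of them higher. Of the 51 lower-ranked members 5, or 9.80%, did, against 13.7% of all tested genes. Shares over genes of like level were not computed, and 13 members averaged under 10 counts in both genotypes. Leaving out Plxnb1-/- replicate 3 brought the 15 members to 7, and leaving out WT replicate 2 to 14. The shares of all tested genes at an unadjusted p below 0.05 were not computed for these fits.

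**Figure D2:**
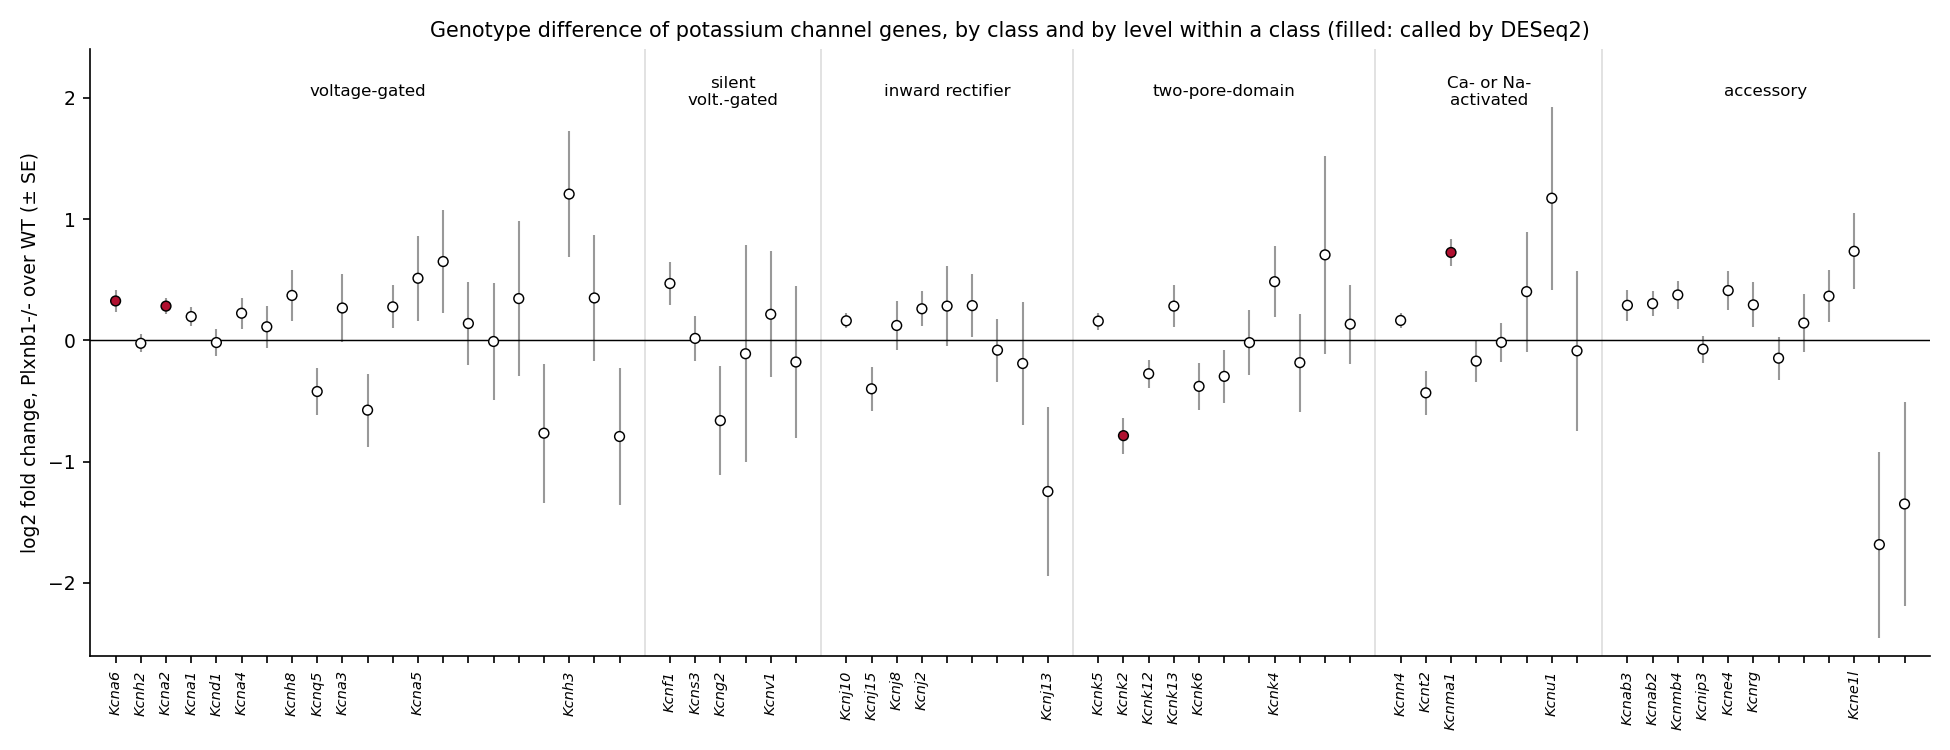
The y axis gives the log2 fold change of Plxnb1-/- over WT SCs from edgeR with its SE for 67 of the 71 genes, grouped by class, with symbols for those described in the text, and ordered by level within a class. The tandem-pore class carries the label two-pore-domain. Filled points mark the 4 genes that DESeq2 called, Kcna6, Kcna2, Kcnk2, and Kcnma1, and the widest bars belong to genes with few counts.

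Kcnk2 had the lowest p of the members on the lower side. It encodes the TREK tandem-pore channel, a leak channel opened by membrane stretch, fatty acids, and heat. Kcnk2 stood at 8.14, 12.6, and 9.66 CPM across the WT cultures and at 6.35, 5.45, and 5.78 CPM across the Plxnb1-/- cultures. Every Plxnb1-/- culture was below every WT culture, and WT replicate 2 was the highest. The means were 10.1 ± 2.25 CPM in WT SCs against 5.86 ± 0.456 CPM in the mutant SCs (SD, n = 3). The log2 fold change was -0.79 (SE 0.15, adjusted p = 0.228 from edgeR and 1.20e-04 from DESeq2), which is 0.580 times the WT level. Without WT replicate 2 it was -0.60. DESeq2 called Kcnk2 with each of the 6 libraries left out in turn, at an adjusted p of at most 0.0162. The antisense gene A430027H14Rik overlaps 12.2% of its exons.

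Kcnma1 had the lowest p of all members and was on the higher side. It encodes the pore of the large-conductance BK channel, which opens on depolarization and calcium together. Kcnma1 stood at 3.34, 2.99, and 2.94 CPM across the WT cultures and at 4.86, 4.73, and 5.74 CPM across the Plxnb1-/- cultures. The gap between the genotypes was wider than the spread within either of them. The means were 3.09 ± 0.221 CPM in WT SCs against 5.11 ± 0.550 CPM in the mutant SCs (SD, n = 3). The log2 fold change was 0.72 (SE 0.11, adjusted p = 0.152 from edgeR and 9.74e-05 from DESeq2), which is 1.65 times the WT level. It ranged from 0.63 to 0.79 with each culture left out, and DESeq2 called the gene in each of these 6 fits, at an adjusted p of at most 0.0210. Kcnma1 stood at place 30 by level, at 0.242 CPM per kb, and its annotated exons sum to 16976 bases, so that any exons not used in SCs lower this level.

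Kcnk2 lies on the minus strand of chromosome 1 of GRCm38 from 189207930 to 189402273, and Kcnma1 on the minus strand of chromosome 14 from 23289431 to 24014491. The 250 bases before their RefSeq start sites are given because these genes had the lowest adjusted p of all members, and because Kcnk2 has 4 annotated starts that a count per gene adds together. CG dinucleotides are in capitals, and sequences run 5′ to 3′ on the strand of the gene.
Kcnk2, first start, chr1:189402274-189402523: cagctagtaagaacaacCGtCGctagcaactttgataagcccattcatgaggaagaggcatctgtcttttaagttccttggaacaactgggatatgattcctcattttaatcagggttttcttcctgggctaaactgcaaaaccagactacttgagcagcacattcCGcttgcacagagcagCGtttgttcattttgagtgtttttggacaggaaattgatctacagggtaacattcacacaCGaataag
Kcnk2, last start, chr1:189343354-189343603: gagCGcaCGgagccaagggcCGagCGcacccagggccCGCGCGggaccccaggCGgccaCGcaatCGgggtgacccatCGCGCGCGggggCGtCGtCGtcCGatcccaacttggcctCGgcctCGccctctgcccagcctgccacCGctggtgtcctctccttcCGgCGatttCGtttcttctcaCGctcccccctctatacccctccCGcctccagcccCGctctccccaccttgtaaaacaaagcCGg
Kcnma1, chr14:24004206-24004455: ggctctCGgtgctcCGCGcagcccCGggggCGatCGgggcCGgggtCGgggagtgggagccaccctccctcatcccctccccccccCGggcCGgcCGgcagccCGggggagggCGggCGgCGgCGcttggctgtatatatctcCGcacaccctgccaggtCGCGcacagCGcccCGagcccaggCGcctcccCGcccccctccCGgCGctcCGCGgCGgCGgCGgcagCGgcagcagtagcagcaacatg
The first Kcnk2 window holds 5 CG dinucleotides and the last 28, and the Kcnma1 window holds 31. RefSeq windows of this kind (GRCm38.p6) were found for 51 of the 71 members. The median CG count, taken as the highest over a gene's starts, was 14 in the 17 matched genes of the 20 highest members, 10 in the 34 matched genes below them, and 7 in 18 of the 23 genes under the filter. It was 15 over all tested genes with a window and 6 over all genes with one. The cAMP response element TGACGTCA was searched for on both strands because forskolin raises cAMP, and it was in the windows of 0 of the 51 members, where 1.77% of all genes and 2.81% of the tested genes have it. The SOX motif ACAAAG, also on both strands and not contained in the first, was in 8 of the 51, or 15.7%, where 18.6% of all genes and 15.1% of the tested genes have it, and among these is the last window of Kcnk2. A match of letters is a description and shows no binding.

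The Shaker genes Kcna6, Kcna2, and Kcna1 were among the 8 highest members by level. Kcna1, Kcna2, and Kcna6 are delayed rectifiers that assemble with each other and with the beta subunits, and in nerve they are known from the juxtaparanodes of myelinated axons. All 6 measured Kcna genes were on the higher side in Plxnb1-/- SCs, as were 51.5% of all tested genes. Their log2 fold changes lay between 0.20 and 0.51. At an unadjusted p below 0.05 in edgeR stood 3 of the 6, where 6.95% of all tested genes were higher. The upper end, 0.51, belongs to Kcna5, whose cultures overlapped and whose value was 0.20 without Plxnb1-/- replicate 3. Kcna2 stood at 141, 130, and 156 CPM across the WT cultures and at 165, 175, and 180 CPM across the Plxnb1-/- cultures, without overlap. Its log2 fold change was 0.28 (SE 0.07, adjusted p = 0.266 from edgeR and 0.0174 from DESeq2). Kcna6 measured 181, 141, and 179 CPM in WT against 194, 213, and 221 CPM in Plxnb1-/- SCs, again without overlap and with WT replicate 2 as the lowest. Its log2 fold change was 0.32 (SE 0.09, adjusted p = 0.273 from edgeR and 0.0386 from DESeq2). These calls depended on the libraries. Without WT replicate 2 the fold changes were 0.23 for Kcna2 and 0.22 for Kcna6, under the cutoff of 0.25, and without Plxnb1-/- replicate 3 DESeq2's adjusted p was 0.361 and 0.490. DESeq2 also lost both genes without Plxnb1-/- replicate 2, and Kcna6 without Plxnb1-/- replicate 1 and without WT replicate 3. Kcna1 measured 37.8, 39.0, and 45.2 CPM in WT against 42.7, 48.9, and 48.3 CPM in Plxnb1-/- SCs, where the ranges overlap (log2 fold change 0.20, adjusted p = 0.332 from edgeR). Kcna4, the A-type Shaker subunit, was at 5.20 ± 0.889 CPM in WT SCs against 6.08 ± 0.379 CPM in the mutant SCs (SD, n = 3).

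Neighbouring Shaker genes differed widely in level. Kcna1, Kcna6, and the low Kcna5 are neighbours on the minus strand of chromosome 6, starting at 126640397, 126708329, and 126532551. Their levels were 9.13, 31.6, and 0.0856 CPM per kb. On chromosome 3, Kcna2 starts at 107101146 and Kcna3 at 107036169, with levels of 13.3 and 0.138 CPM per kb. An antisense gene, Gm26673, overlaps 39.6% of the exons of Kcna6, and the strand setting of the counting is not given in the sources used here, so that reads of this pair may not be separated.

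**Figure D3:**
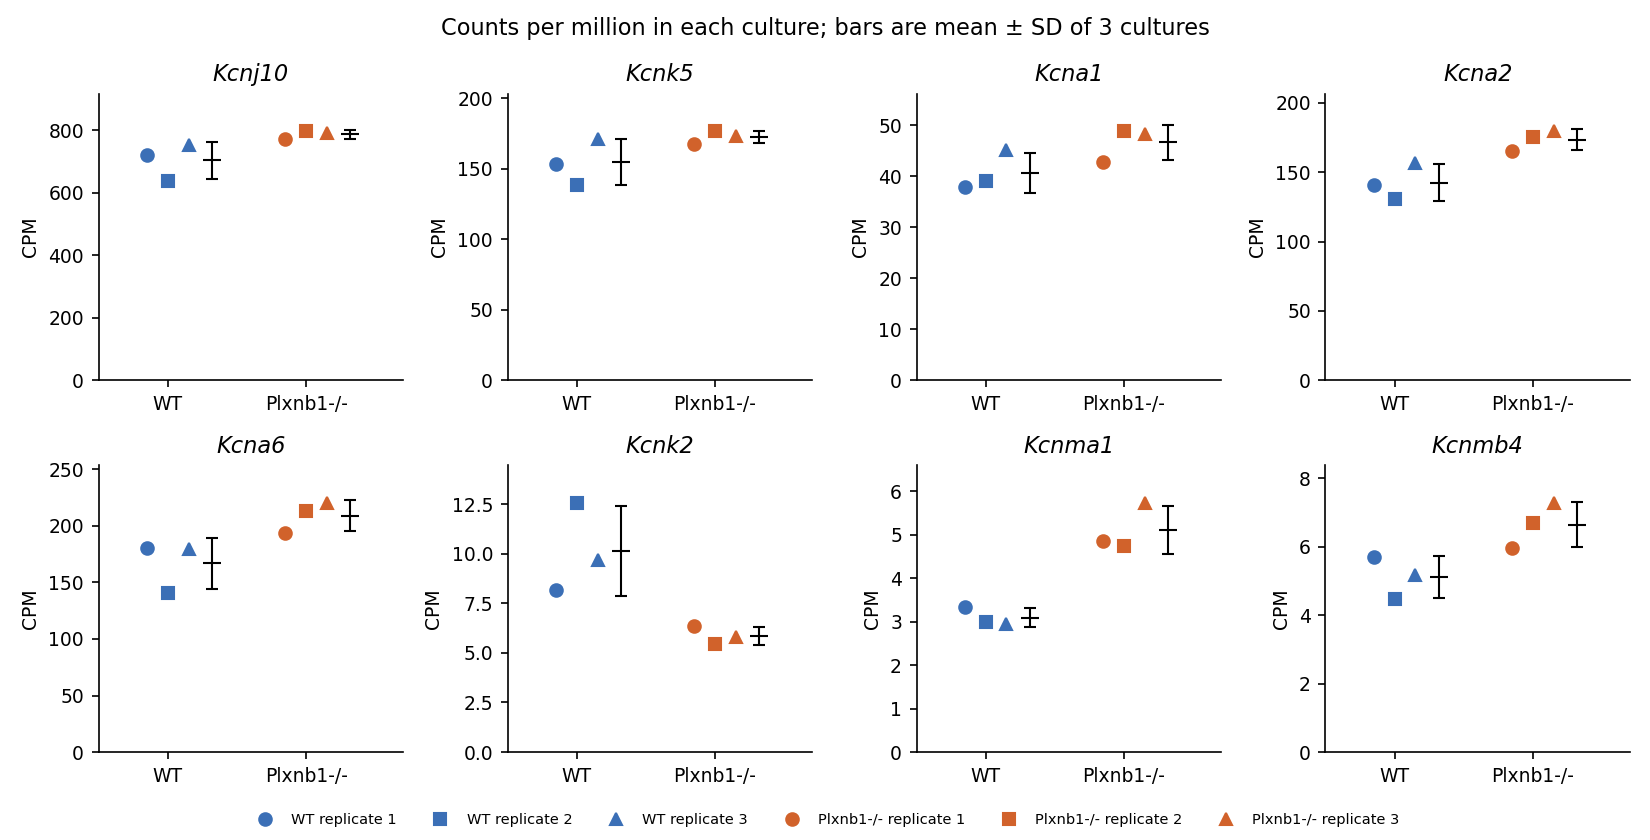
Each panel gives the CPM of a gene in the 6 cultures, WT at the left and Plxnb1-/- at the right, with bars for the mean and SD of 3 cultures and axes from 0. The genotypes do not overlap for Kcnj10, Kcna2, Kcna6, Kcnk2, Kcnma1, and Kcnmb4 and overlap for Kcnk5 and Kcna1. WT replicate 2 is the lowest WT culture for Kcnj10, Kcnk5, Kcna2, Kcna6, and Kcnmb4 and the highest for Kcnk2. For Kcna1 and Kcnma1 it lies between the other WT cultures.

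Outside the Shaker group, neither tool called a voltage-gated pore. Kcnh2 measured 89.4, 74.2, and 92.7 CPM in WT against 82.9, 84.7, and 84.4 CPM in Plxnb1-/- SCs, so that the WT cultures enclosed the Plxnb1-/- cultures (log2 fold change -0.02, SE 0.08, adjusted p = 0.917 from edgeR). Kcnd1, an A-type channel of the Shal family, was at 9.58 ± 1.41 CPM in WT SCs against 9.45 ± 0.591 CPM in the mutant SCs (SD, n = 3). Kcnh3 had an unadjusted p below 0.05 on 2, 2, and 5 counts in WT and 8, 9, and 7 counts in Plxnb1-/- SCs, near the floor of the depth (adjusted p = 0.355 from edgeR). The genotypes also did not overlap for Kcna3 and Kcnh8, higher in Plxnb1-/- SCs, and Kcnq5, lower in Plxnb1-/- SCs, none of them at an unadjusted p below 0.05. The 7 measured Kcnh genes spanned levels from 0.0134 to 17.5 CPM per kb.

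Among the silent subunits, which alter the gating of the pores they join, Kcnf1 was the highest. It measured 3.25, 1.88, and 2.64 CPM in WT against 3.49, 3.89, and 3.40 CPM in Plxnb1-/- SCs, without overlap (log2 fold change 0.47, SE 0.18, adjusted p = 0.322 from edgeR). Its value without WT replicate 2 was 0.29. The other leaders, Kcns3 (1.26 ± 0.291 and 1.26 ± 0.0688 CPM), Kcng2 (0.188 ± 0.0414 and 0.117 ± 0.0547 CPM), and Kcnv1 (0.0823 ± 0.0129 and 0.0973 ± 0.0466 CPM), overlapped between the genotypes (WT and Plxnb1-/-, SD, n = 3).

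Neither tool called an inward rectifier. Kcnj10 stood at 721, 639, and 752 CPM across the WT cultures and at 772, 798, and 792 CPM across the Plxnb1-/- cultures. Every Plxnb1-/- culture was above every WT culture, by a small margin, and the log2 fold change was 0.16 (SE 0.06, adjusted p = 0.319 from edgeR), or 0.10 without WT replicate 2. Kcnj15, an inward rectifier of secretory epithelia, measured 50.4, 89.8, and 55.8 CPM in WT against 50.1, 50.7, and 47.5 CPM in Plxnb1-/- SCs. The log2 fold change was -0.40 (adjusted p = 0.373 from edgeR) and came to -0.10 without WT replicate 2, the culture at 89.8 CPM. Kcnj8 was at 2.30 ± 0.234 CPM in WT SCs against 2.52 ± 0.700 CPM in the mutant SCs, and Kcnj2, the classical strong rectifier, at 3.80 ± 0.775 and 4.54 ± 0.329 CPM (SD, n = 3), both with overlap. Kcnj13, at 0.0369 CPM per kb, shares 49.1% of its exons with Gigyf2 on the opposite strand.

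The remaining tandem-pore genes lay on both sides. Kcnk5 measured 153, 139, and 171 CPM in WT against 168, 177, and 173 CPM in Plxnb1-/- SCs, with overlap (log2 fold change 0.16, SE 0.07, adjusted p = 0.368 from edgeR). Its fold change was 0.09 without WT replicate 2 and 0.24 without WT replicate 3. Kcnk12, a halothane-inhibited channel, measured 3.16, 3.35, and 3.53 CPM in WT against 2.95, 2.90, and 2.44 CPM in Plxnb1-/- SCs. These values did not overlap, and the log2 fold change was -0.28 (SE 0.12, adjusted p = 0.349 from edgeR). Its close relative Kcnk13 was at 3.06 ± 0.504 and 3.73 ± 0.765 CPM (WT and Plxnb1-/-, SD, n = 3), with overlap. Of the 11 measured genes, 5 had a higher and 6 a lower value in the mutant, and the median log2 fold change was -0.02. The cultures did not overlap for 3 of the 11, or 27.3%, against 19.7% of all tested genes. These 3, Kcnk2, Kcnk12, and Kcnk6, were lower in Plxnb1-/- SCs, as were 10.4% of all tested genes without overlap between genotypes. Kcnk4 shares 13.2% of its exons with Catsperz on the same strand, so that its reads cannot be assigned with certainty.

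Of the calcium- and sodium-activated pores, Kcnn4 was by far the highest. This channel drives the hyperpolarization that follows calcium entry in non-excitable cells. Kcnn4 measured 100, 86.7, and 103 CPM in WT against 105, 111, and 109 CPM in Plxnb1-/- SCs, a narrow separation without overlap (log2 fold change 0.16, SE 0.06, adjusted p = 0.325 from edgeR), and 0.10 without WT replicate 2. Kcnt2, a sodium-activated channel, measured 2.27, 3.74, and 2.77 CPM in WT against 2.12, 2.00, and 2.37 CPM in Plxnb1-/- SCs. The WT value of replicate 1 lay within the Plxnb1-/- range, and the log2 fold change of -0.43 became -0.22 without WT replicate 2. Kcnu1, the sperm relative of Kcnma1, had 4, 0, and 4 counts in WT and 11, 6, and 4 in Plxnb1-/- SCs, where no difference was detectable at this depth.

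Of the 12 measured accessory genes, 4 had an unadjusted p below 0.05 in edgeR, all higher in Plxnb1-/- SCs, where 6.95% of all tested genes were. Kcnmb4, a beta subunit of the BK channel, measured 5.69, 4.48, and 5.18 CPM in WT against 5.97, 6.68, and 7.28 CPM in Plxnb1-/- SCs, without overlap (log2 fold change 0.37, SE 0.11, adjusted p = 0.286 from edgeR and 0.0964 from DESeq2). The pore Kcnma1 was also higher, but of the 2 measured BK beta subunit genes (Kcnmb), 1 was higher and 1 lower. The antisense gene Kcnmb4os2 overlaps 20.9% of the exons of Kcnmb4. Kcnab2, a beta subunit of the Shaker channels, measured 9.94, 8.64, and 9.22 CPM in WT against 10.2, 10.8, and 13.2 CPM in Plxnb1-/- SCs (log2 fold change 0.30, adjusted p = 0.296 from edgeR), and 0.19 without Plxnb1-/- replicate 3. All 3 Kcnab genes were on the higher side, as were 51.5% of all tested genes. The genotypes did not overlap for 1 of the 3, Kcnab2, against 19.7% of all tested genes. Kcnab3 was at 6.98 ± 1.04 and 8.54 ± 1.1 CPM (WT and Plxnb1-/-, SD, n = 3), with overlap. Kcne4, an inhibitory single-span subunit, measured 2.03, 2.67, and 2.64 CPM in WT against 3.03, 2.87, and 3.87 CPM in Plxnb1-/- SCs, without overlap (log2 fold change 0.41, adjusted p = 0.324 from edgeR), and 0.27 without Plxnb1-/- replicate 3. Kcne1l was at 0.225 ± 0.0405 and 0.378 ± 0.10 CPM, also without overlap (adjusted p = 0.354 from edgeR). The calcium sensor Kcnip3 was at 5.87 ± 0.856 and 5.57 ± 0.136 CPM, and Kcnrg, a suppressor of channel assembly, at 1.12 ± 0.170 and 1.37 ± 0.236 CPM, both with overlap (SD, n = 3).

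The differences between genotypes ran alongside differences between single cultures. Among the 20 highest members, WT replicate 2 was the lowest library for 11 genes, or 55.0%, against 27.0% of all tested genes, and Plxnb1-/- replicate 3 was the highest for 8, or 40.0%, against 20.4%. The summed SC markers were likewise lowest in WT replicate 2 (2460 CPM) and highest in Plxnb1-/- replicate 3 (3308 CPM). Of the 10 SC markers, 9 were higher in Plxnb1-/- SCs and 8 of these at an unadjusted p below 0.05 in edgeR, where 6.95% of all tested genes were. Neither tool called an SC marker, and their median log2 fold change was 0.19. The 7 fibroblast markers summed to 888, 1321, and 1037 CPM in WT against 900, 898, and 867 CPM in Plxnb1-/- SCs. Kcnk2, Kcnj15, and Kcnt2 also had their peak in WT replicate 2. That library was the highest for 10 of the 71 members, or 14.1%, against 25.1% of all tested genes. Of the 7 fibroblast markers, 6 were lower in Plxnb1-/- SCs and 1, Lum, was higher. An unadjusted p below 0.05 in edgeR was reached by 3 of the lower ones, where 6.78% of all tested genes were lower. Dcn was nearly level, at a log2 fold change of -0.0064. The fibroblast gene Thy1, the target of the depletion, was still at between 384 and 652 CPM. The 8 mural and smooth muscle markers summed to between 1927 and 2510 CPM in WT against 1766 to 1860 CPM in Plxnb1-/- cultures. Of these 8, 5 were lower and 3 higher, Myh11, Rgs5, and Notch3, where 51.5% of all tested genes were higher. DESeq2 called Acta2 and Cnn1, against 1.50% of all tested genes. In edgeR, 4 of the lower ones had an unadjusted p below 0.05, where 6.78% of all tested genes were lower. The genotypes did not overlap for 4, all lower, against 10.4% of all tested genes. The part of these cells in the differences was not tested.

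**Figure D4:**
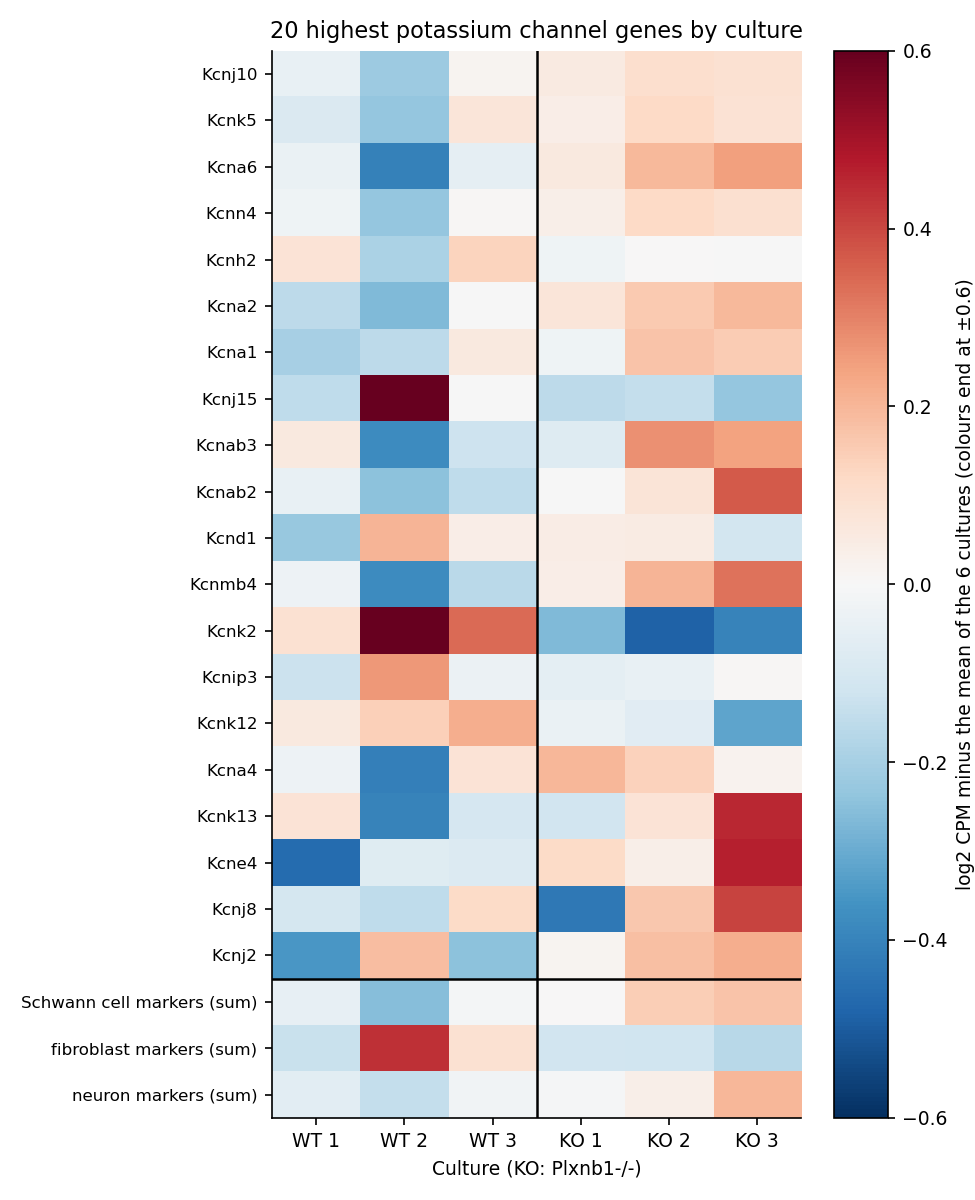
Rows are the 20 highest potassium channel genes and the summed SC, fibroblast, and neuron markers, columns are the cultures, and colour gives log2 CPM minus the mean of the 6 cultures, ending at ±0.6. WT replicate 2 is low for Kcna6 (-0.40) and the SC marker sum (-0.26) and high for Kcnk2 (0.72), Kcnj15 (0.68), and the fibroblast marker sum (0.44).

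Several low members peaked in Plxnb1-/- replicate 3. The summed neuron markers were also highest in that culture, at 198 CPM against 156 to 177 CPM elsewhere, with the nociceptor sodium channel Scn10a at 3.53 CPM against 1.08 to 2.13 CPM. Among the 51 members below the 20 highest, that culture was the highest for 29.4%, against 20.4% of all tested genes. The 9 neuron markers were all detected, led by Tubb3 at between 128 and 153 CPM, while Rbfox3 stayed between 0.308 and 0.736 CPM. All 9 were on the higher side in Plxnb1-/- SCs, as were 51.5% of all tested genes. Their median log2 fold change was 0.35, and 0 of them had an unadjusted p below 0.05 in edgeR. Macrophage markers summed to between 25.9 and 28.4 CPM in WT against 30.1 to 33.6 CPM in Plxnb1-/- cultures, with Cx3cr1 called higher by DESeq2 (adjusted p = 0.0497). All 6 macrophage markers were on the higher side. An unadjusted p below 0.05 in edgeR was reached by 3 of them, where 6.95% of all tested genes were higher. The 5 endothelial markers summed to between 57.2 and 76.6 CPM in WT against 60.4 to 66.3 CPM in Plxnb1-/- cultures. The part of neurons and macrophages in the values was not tested.

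Potassium is also moved by pumps and cotransporters, and 22 of 23 listed genes were measured. Of these, edgeR called 0 and DESeq2 1, and 5, or 22.7%, had an unadjusted p below 0.05 in edgeR, 3 higher and 2 lower in Plxnb1-/- SCs. The median log2 fold change was 0.09. Over all tested genes, DESeq2 called 1.50%, 13.7% had such a p in edgeR, and the median was 0.005. The DESeq2 call was Slc12a2, the sodium-potassium-chloride cotransporter that loads chloride into the cell, at 45.0, 38.3, and 44.5 CPM in WT against 49.5, 50.7, and 59.7 CPM in Plxnb1-/- SCs (log2 fold change 0.32, adjusted p = 0.273 from edgeR and 0.0324 from DESeq2). The potassium-chloride exporter Slc12a4 was at between 207 and 217 CPM in WT against 213 to 223 CPM in Plxnb1-/- cultures.

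Proteins that assemble, anchor, or cluster the channels without carrying a Kcn symbol formed a list of 27 genes, of which 23 were measured. Here edgeR called 0 and DESeq2 2, against 1.50% of all tested genes in DESeq2. In edgeR, 7, or 30.4%, had an unadjusted p below 0.05, against 13.7% of all tested genes, 6 of them on the higher side and 1 on the lower. The median log2 fold change was 0.18, against 0.005 over all tested genes. Adam23, a receptor of the LGI proteins that organize Shaker channels, measured 30.7, 19.6, and 25.2 CPM in WT against 33.6, 36.7, and 39.8 CPM in Plxnb1-/- SCs (log2 fold change 0.54, adjusted p = 0.273 from edgeR and 0.00740 from DESeq2). Lgi2, a secreted ligand of this family, measured 8.97, 14.9, and 9.36 CPM in WT against 7.31, 6.91, and 7.50 CPM in Plxnb1-/- SCs (log2 fold change -0.61, adjusted p = 0.273 from edgeR and 0.0231 from DESeq2), and the fold change was -0.34 without WT replicate 2, its highest library. The most abundant member of that family was Lgi4, which SCs secrete to promote myelination, at between 429 and 481 CPM in WT against 475 to 549 CPM in Plxnb1-/- cultures. Abcc9, the partner of Kcnj8, was at between 4.10 and 4.69 CPM in WT against 3.68 to 5.94 CPM in Plxnb1-/- cultures. Dpp6 and Dpp10, partners of the Shal channels, had at most 1.601 CPM.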

How the data were processed

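Bulk RNA-seq of poly(A)-selected RNA was deposited as a count table with 1 column for each of the 6 cultures. Per the labels and the study's methods, the authors trimmed reads with Trim Galore 0.6.5, aligned them to mm10 with Bowtie2 2.4.1, removed duplicates with SAMtools 1.10 and made the deposited counts per gene with featureCounts on a GENCODE annotation. Bowtie2 does not split reads at introns, so that reads across exon junctions can be lost, more so in genes with many short exons, and the strand setting of the counting is not given in the sources used here. The deposited FPKM values were not used here. Symbols, positions and exon lengths were taken from GENCODE M21 (GRCm38), which matched 55141 of 55401 identifiers without their version. Annotated exons of all transcripts were merged to give the length behind a level, and the release differs from the one the authors used.

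A gene entered the test if 5 or more of the 6 libraries reached 2 counts. Testing used the quasi-likelihood functions of edgeR 4.0.16 in R 4.3.3, with TMM factors and a design holding genotype alone. The SE is the absolute log2 fold change divided by the root of the F statistic. DESeq2 1.42.0, the study's tool, was run with default settings as an alternative, as were other normalizations, other filters, a replicate term and each library left out. DESeq2 with each library left out was added after seeing the data. The members, classes and lists were chosen with earlier results of these data known. Named genes were Plxnb1, the 20 highest members, members with an unadjusted edgeR p below 0.05 or a call by either tool, and the highest of each subfamily, 33 members in all, and some of them are not reported here. Kcnq5, Kcnk4, Kcnk6, Kcna3, Kcna5, Kcnh8 and Kcnj13 fall outside this rule and were named after their values were seen. The fitting code was tested on simulated data. Tables were made with Python 3.11.15 and pandas 2.3.3. Floors of 3 counts cover counting error only.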

Additional observations from a re-analysis of the deposited data

How the results depend on the processing

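edgeR called 8 genes in all and 0 potassium channel genes, and the number of members called stayed at 0 under every edgeR alternative except the fit without a filter on low counts. That fit called 296 genes, 4 of them members, and DESeq2 called 335, again with 4 members. With each library left out, edgeR called between 4 and 25 genes, of which 25 without WT replicate 2 were the most, and 0 members. DESeq2 called 286, 121, and 46 genes in all without Plxnb1-/- replicates 1, 2, and 3, with 3, 2, and 2 members among them. It called 938, 160, and 220 genes without WT replicates 1, 2, and 3, with 6, 2, and 3 members among them. Members at an unadjusted p below 0.05 numbered between 7 and 17 in edgeR and between 7 and 14 in DESeq2 with a library left out, with 7 without Plxnb1-/- replicate 3 and 9 in DESeq2 without Plxnb1-/- replicate 2. In the edgeR fit of all 6 libraries, removing the cutoff on the fold change left 8 genes and 0 members called. On the higher side were 41 members in the main fit. With a library left out, both tools gave between 37, without Plxnb1-/- replicate 3, and 48, without WT replicate 3. A filter of 10 counts in 3 libraries gave 36 and the fit without a filter 50, each on another set of members. The shares of all genes on the higher side were not computed for these fits. By level, 19 of the 20 highest members stayed with the length of the longest transcript, and 17 without division by length.

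The fit with replicate number as a block called 5 genes in all and 0 members, and 15 members had an unadjusted p below 0.05. The correlations of same-numbered libraries' deviations from their genotype means were -0.0218, 0.00782, and 0.0653. Those of unlike-numbered libraries ran from -0.053 to 0.0485. With 3 libraries per genotype, these values cannot show whether same-numbered cultures shared a preparation.

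Small fold changes turned sign when single libraries were left out. In edgeR, the range over the 6 left-out libraries was -0.113 to 0.0384 for Kcnh2, -0.123 to 0.0859 for Kcnd1, -0.149 to 0.0516 for Kcnip3, and -0.0676 to 0.325 for Kcnj8. It was -0.141 to 0.199 for Kcns3 and -0.169 to 0.527 for Kcnv1. In DESeq2, Kcnh2 came to 0.0086 without WT replicate 1 and 0.0366 without WT replicate 3. Without WT replicate 2, Kcnd1 came to 0.0826 and Kcnip3 to 0.0481. Without Plxnb1-/- replicate 3, Kcnd1 came to 0.0308, Kcnj8 to -0.0679, and Kcnv1 to -0.167. Kcns3 came to -0.0066, -0.0139, and -0.144 without Plxnb1-/- replicate 1, Plxnb1-/- replicate 2, and WT replicate 3. The call of Plxnb1 in edgeR was lost in 6 of the alternatives, at log2 fold changes between -2.20 and -1.95, among them the stricter filter (-2.08) and the robust fit (-2.08). The cause was not tested. Depth limits the members with fewest counts, of which 13 averaged under 10 counts in both genotypes.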
